A study of Mus musculus with 24 samples.

Results

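The genes described here encode the nuclear subunits of the 5 enzyme complexes of oxidative phosphorylation in mouse CD4 T cells. They were chosen by symbol alone, as the genes whose names begin with Ndufa, Ndufb, Ndufc, Ndufs, Ndufv, Uqcr, Cox4i, Cox5, Cox6, Cox7, Cox8 or Atp5, together with Sdha, Sdhb, Sdhc, Sdhd and Cyc1, without pseudogenes and without the Ndufaf assembly factors. This gave 80 of the 22180 genes tested. Of these, 32 belong to complex I, 4 to complex II, 8 to complex III, 19 to complex IV and 17 to complex V. Ndufa4 and Ndufa4l2, named for complex I, were counted with complex IV, where the Ndufa4 protein is found. Where a gene had more than 1 probe set, its brightest by mean level stood for it. A further 10 probe sets for subunits also matched another gene and were left out, so 8 genes whose symbols fit the rule were not analysed here. They were Uqcr10, Cox6c, Ndufb2, Ndufs6, Ndufb4 and the like-named Ndufs6b, Ndufb4b and Ndufb4c, which share the probe sets of Ndufs6 and Ndufb4.

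The groups were CD4 T cells of TRIM28 knockout mice (KO) at 0, 4, 24 and 72 h and CD4 T cells of wild-type littermates (WT) at the same times, with 3 arrays in each of the 8 groups. All were naive cells, taken with magnets and then sorted on a flow cytometer, and those at 4, 24 and 72 h were stimulated with plate-bound anti-CD3 and soluble anti-CD28, while those at 0 h were not stimulated. TRIM28 is a corepressor that zinc finger proteins bring to chromatin. Not given in the sources used here are the sort gate, how the deletion was driven, the age of the mice and whether animals were pooled. The labels do not tie the arrays of a group to separate animals, so each p-value rests on array-to-array spread that may be partly technical. The values are the deposited log2 levels, which were scaled to a common distribution. A change shared by all genes would be largely removed by this and could not be read from them. Small offsets between arrays remained, with array medians from 3.59 to 3.76. At 24 h the median KO minus WT change over all genes was -0.053.

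Complexes I to IV pass electrons from NADH and succinate through ubiquinone and cytochrome c to oxygen and, except for complex II, pump protons across the inner mitochondrial membrane. Complex V, the ATP synthase, makes ATP as protons flow back. Naive T cells are small and quiescent, and their growth after receptor stimulation includes the build-up of mitochondria, which needs subunits encoded in the nucleus and in mitochondrial DNA in matched amounts. The 13 subunits encoded in mitochondrial DNA were not among the genes tested.

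Trim28 was lower in KO at every time, with changes between -3.58 (24 h) and -2.62 (0 h). T cell markers were high in both genotypes, with mean levels over 8 of 10 listed genes between 10.1 and 10.6 in KO arrays and between 9.91 and 10.6 in WT arrays. At 72 h 4 of these 8 were higher in KO and 0 were lower. B cell markers (12 of 15 tested) averaged 4.67 to 5.35 in KO arrays and 4.21 to 4.37 in WT arrays at 72 h, and 5.01 to 5.73 in KO and 4.33 to 4.68 in WT at 24 h, with KO array 2 the lowest KO array at every time. Of these 12 genes 3, 2, 3 and 2 were called higher in KO and 0 lower at 0, 4, 24 and 72 h, and KO array 2 lay below the highest WT array at 0 and 4 h. Of 19 myeloid markers 5, 5, 1 and 0 were called higher and 0, 0, 0 and 3 lower in KO at 0, 4, 24 and 72 h. They averaged 4.07 to 4.70 in KO and 3.73 to 4.05 in WT at 0 h, 3.81 to 4.31 and 3.41 to 3.85 at 4 h, 3.52 to 3.83 and 3.44 to 3.48 at 24 h, and 3.58 to 3.69 and 3.84 to 3.94 at 72 h. Of 2 CD8 T cell markers 0, 0, 1 and 1 were called lower and 0 higher in KO at 0, 4, 24 and 72 h. Of 5 natural killer and innate lymphoid markers tested, 0, 0, 1 and 2 were called lower and 0, 0, 0 and 1 higher. The part of all these markers in the results was not tested, and counts are also given with KO array 2 standing alone for KO. Arrays 3 carried male levels of Xist and Y-linked genes in every group, and arrays 1 and 2 female levels. In sorted cell populations measured as a whole, fewer cells of a type and less RNA per cell cannot be told apart.

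Most subunit genes were higher at 24 h than before stimulation, in both genotypes. In KO, 59 of the 80 genes rose between 0 and 24 h and 3 fell, and in WT 62 rose and 2 fell. A gene counts as risen or fallen at an adjusted p below 0.05 (limma, Benjamini-Hochberg over all genes). Of all genes 34% were called in KO (17.6% risen, 16.5% fallen) and 39.7% in WT (23.2% risen, 16.5% fallen). The median change of the 80 genes was 0.58 in KO and 0.76 in WT, beside 0.009 and 0.042 over all genes. All 59 genes that rose in KO were among the 62 that rose in WT. The plot of complex medians shows the same course for each complex in both genotypes, low at 0 and 4 h and high at 24 h.

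**Figure D1:**
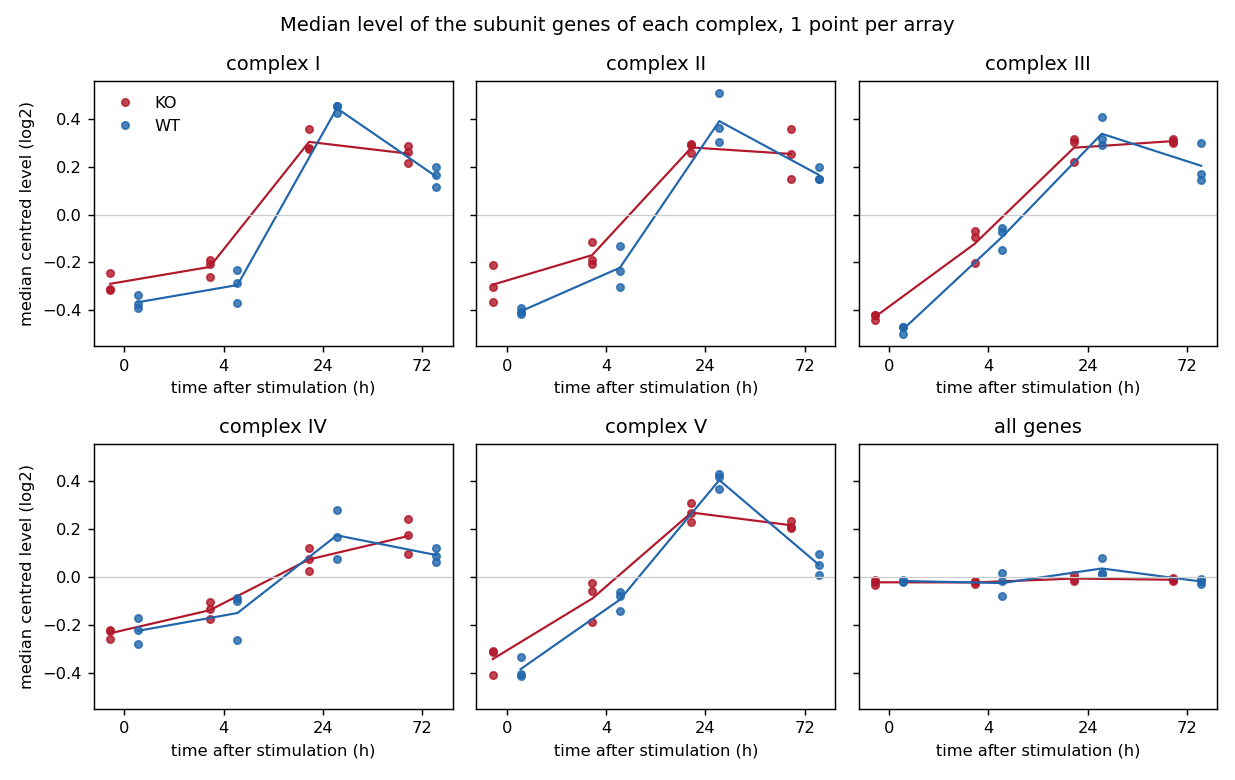
Median over the subunit genes of each complex of the level minus the gene's mean over all 24 arrays (log2, vertical axis) at 0, 4, 24 and 72 h (horizontal axis), with 1 point per array, KO in red left of WT in blue, and lines through the group means. For complex I the KO arrays lay between 0.27 and 0.36 at 24 h and between 0.21 and 0.29 at 72 h. The WT arrays lay between 0.42 and 0.45 at 24 h and between 0.11 and 0.20 at 72 h. The median over all genes ran from -0.08 (WT array 1 at 4 h) to 0.08 (WT array 1 at 24 h).

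The highest rise was that of a complex I gene in both genotypes. Ndufab1, the mitochondrial acyl carrier protein that also sits in complex I, had levels of 6.45, 6.10 and 6.22 in the KO arrays at 24 h, against 4.86, 4.88 and 4.80 at 0 h. In WT it had 6.43, 6.67 and 6.46 at 24 h, against 4.64, 4.67 and 4.74 at 0 h. The arrays of the 2 times did not overlap in either genotype, and the change was 1.41 in KO (SE 0.11, adjusted p = 8.62e-11, limma) and 1.84 in WT (SE 0.11, adjusted p = 2.67e-13). Ndufc2, an accessory subunit of the membrane arm, had 8.67, 8.56 and 8.75 in KO and 9.27, 8.83 and 8.78 in WT at 24 h, and its change from 0 h was 1.31 in KO and 1.76 in WT. Sdhd, a membrane anchor of complex II, changed by 1.25 in KO and 1.71 in WT. For Sdhd the change lay after 4 h: between 0 and 4 h it was -0.07 in KO and 0.04 in WT, neither of which passed the test.

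Cox7a2l and Ndufb11 went the other way. Cox7a2l, which joins complexes III and IV in supercomplexes, had 6.43, 6.29 and 6.11 in KO at 24 h, against 7.14, 6.47 and 7.17 at 0 h. In WT it had 6.26, 6.26 and 6.17 at 24 h, against 7.08, 7.06 and 7.03 at 0 h. The fall was -0.65 in KO and -0.83 in WT (SE 0.13 each, adjusted p = 0.000274 and 8.8e-06, limma), and only KO array 2 at 0 h lay near the later arrays. Ndufb11, an accessory subunit whose gene is on the X chromosome, had 5.36, 5.30 and 5.32 in KO at 24 h, against 5.74, 5.61 and 6.08 at 0 h, and in WT 5.77, 5.07 and 5.26 at 24 h, against 6.13, 5.76 and 5.71 at 0 h. Its arrays overlapped between the times in WT, where the fall of -0.50 passed the test (adjusted p = 0.00987, limma), and did not overlap in KO, where the fall was -0.48.

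Within the first 4 h some subunit genes already rose, others fell, and the rest were not called. In KO 37 of the 80 genes rose and 13 fell, and in WT 35 rose and 13 fell, beside 31.1% of all genes called in KO (15.1% risen, 16% fallen) and 34.7% in WT (16.8% and 17.8%). The share that fell was near that of all genes, whereas the share that rose was above it. The 13 that fell were the same in both genotypes, and 32 genes rose in both. Atp5md, a small membrane subunit of the ATP synthase, rose by 1.09 in KO and 0.95 in WT, and Ndufb6, an accessory subunit of complex I, by 0.94 and 0.99. Among the genes that fell were the complex I accessory subunits Ndufv3 (-0.85 in KO and -0.98 in WT), Ndufa6 (-0.62 and -0.96) and Ndufb11 (-0.99 and -0.84), together with Cox7a2l (-0.58 and -0.86). Ndufa6 had 7.98, 7.74 and 7.61 in KO at 4 h, against 8.63, 8.29 and 8.26 at 0 h, and 7.50, 7.34 and 7.65 in WT at 4 h, against 8.46, 8.42 and 8.49 at 0 h. By 24 h Ndufv3 and Ndufa6 no longer passed the test against 0 h in either genotype (changes of 0.09 and -0.01 in KO, -0.25 and -0.19 in WT). The KO response minus the WT response over this step passed the test for 0 of the 80 genes, beside 0.726% of all genes. It had an unadjusted p below 0.05 for 3 of the 80, beside 2422 of all 22180 genes.

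Between 4 and 24 h 55 genes rose and 2 fell in KO, and 61 rose and 2 fell in WT, beside 28.3% of all genes called in KO (15.3% risen, 13% fallen) and 32.6% in WT (21.2% and 11.5%). Of those that rose, 54 rose in both. Applying quantile normalization again to the gene table moved the WT split over all genes from 4698 risen and 2541 fallen to 3521 and 3968 for 24 h against 4 h, and from 5146 and 3664 to 4276 and 4596 for 24 h against 0 h. The median of the 80 genes stayed above 0 under it, at 0.39 and 0.61.

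**Figure D2:**
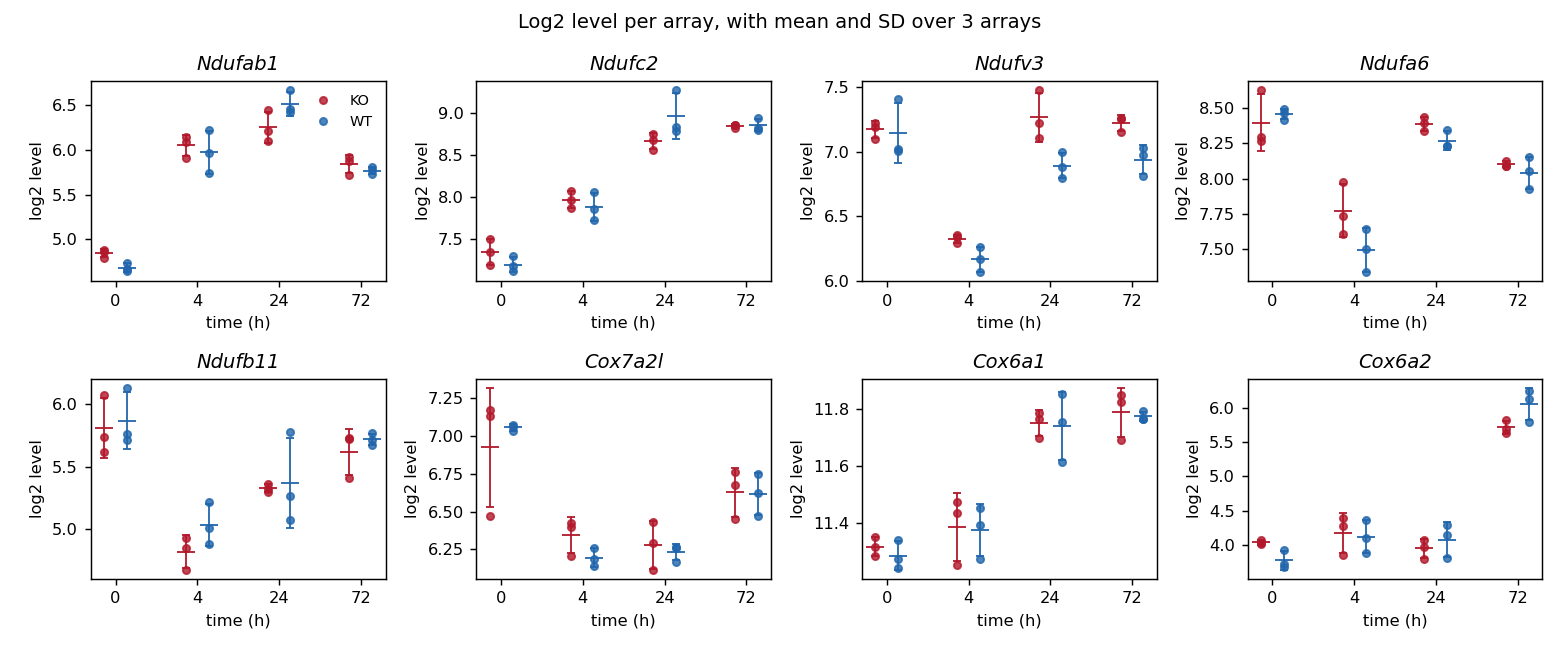
Log2 level (vertical axis) per array at 0, 4, 24 and 72 h (horizontal axis) of 8 subunit genes, KO in red left of WT in blue, with mean and SD (n = 3). Ndufv3, Ndufa6 and Ndufb11 dipped at 4 h, Cox7a2l stayed low at 24 h, and Cox6a2 stood between 5.63 and 5.83 in KO and between 5.80 and 6.25 in WT at 72 h, above every earlier array.

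Tissue isoforms of complex IV were mostly dim on these arrays. Of the 80 genes 75 lay above the low-level filter (a mean log2 level of 3.24, the 40th percentile), including every gene of complexes I, II, III and V. The 5 below it were Cox4i2, Cox7a1, Cox7b2, Cox8b and Cox8c, isoforms of complex IV known from lung, muscle or testis. Cox6a2, the isoform of heart and skeletal muscle, was above the filter and was singled out after its values were seen. It had 5.70, 5.83 and 5.63 in KO at 72 h, against 4.07, 3.97 and 3.80 at 24 h, and 5.80, 6.25 and 6.14 in WT at 72 h, against 4.29, 4.14 and 3.80 at 24 h. The times did not overlap in either genotype, and the rise was 1.77 in KO (SE 0.15, adjusted p = 1.94e-09, limma) and 1.98 in WT (SE 0.15, adjusted p = 1.19e-10). The difference of KO and WT at 72 h was -0.34 and did not pass the test (adjusted p = 0.263). Its broadly expressed partner Cox6a1 did not change between 24 and 72 h beyond the test in either genotype (0.04 in KO and 0.03 in WT).

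The promoters of the subunit genes were searched for letters bound by factors known for respiratory genes. A RefSeq promoter (GRCm38.p6, 250 bases before to 50 after the start) was listed for 65 of the 80 genes. The NRF1 motif (GCGCA, any 1 letter, then GCGC), sought on both strands like the others, was in 15 of the 65 (23.1%), against 5.19% of the 27025 genes with a listed promoter and 7.26% of the tested genes with one. The ETS motif CCGGAAG, bound by GABPA among others, was in 17 (26.2%), against 9.93% and 12.7%. The YY1 motif AAGATGGCG was in 6 (9.23%), against 1.64% and 2.18%, and the E-box CACGTG, which MYC binds, also in 6 (9.23%), against 8.09% and 9.22%. No motif is part of another, no test of enrichment was made, and a match is not evidence of binding. Among genes later called for a difference between the genotypes in the step from 24 to 72 h, 15 have a listed promoter. Of these 5 hold an NRF1 and 6 an ETS motif, against 10 and 11 of the 50 other subunit genes with one. As examples that do not stand for all the called genes, the 120 bases before the start are shown for 6 of them. They are given 5′ to 3′ on the gene's strand, with NRF1 and ETS letters in capitals.
Ndufa8: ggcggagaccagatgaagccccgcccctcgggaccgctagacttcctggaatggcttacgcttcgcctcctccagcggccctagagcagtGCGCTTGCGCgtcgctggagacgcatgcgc
Sdhd: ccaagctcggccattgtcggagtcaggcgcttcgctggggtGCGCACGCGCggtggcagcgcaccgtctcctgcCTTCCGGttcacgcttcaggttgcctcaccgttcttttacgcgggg
Atp5k: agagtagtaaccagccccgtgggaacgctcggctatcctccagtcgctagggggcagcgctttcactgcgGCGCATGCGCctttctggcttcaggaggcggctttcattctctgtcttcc
Cox6b1: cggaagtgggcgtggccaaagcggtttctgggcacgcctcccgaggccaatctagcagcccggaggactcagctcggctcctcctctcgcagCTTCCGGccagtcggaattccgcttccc
Ndufa4: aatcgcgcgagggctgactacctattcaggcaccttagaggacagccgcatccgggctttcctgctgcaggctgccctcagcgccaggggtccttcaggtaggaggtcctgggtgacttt
Cox7b: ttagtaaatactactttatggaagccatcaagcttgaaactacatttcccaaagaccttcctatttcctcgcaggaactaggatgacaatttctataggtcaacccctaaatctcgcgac
These windows lie at chr2:36049339-36049458 (minus strand), chr9:50603850-50603969 (minus), chr5:108434400-108434519 (minus), chr7:30626115-30626234 (minus), chr6:11907451-11907570 (minus) and chrX:106015580-106015699 (plus), all just upstream of the annotated first base. Ndufa8, Sdhd and Atp5k hold an NRF1 motif that begins 30, 79 and 50 bases before the start. Sdhd and Cox6b1 hold an ETS motif in these windows, and the windows of Ndufa4 and Cox7b hold neither. Atp5k has an ETS motif that begins 12 bases after the start, outside the bases shown.

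Before stimulation no subunit gene was called between KO and WT. None of the 80 passed the test, beside 2.34% of all genes (limma). An unadjusted p below 0.05 was found for 10 of the 80, beside 2760 of all 22180 genes, a similar share. The median change was 0.04, beside 0.004 over all genes, and arrays did not overlap for 9 genes higher and 1 lower in KO, beside 16.9% of all genes, 9.83% higher and 7.09% lower. Without KO array 3 at 0 h, 2 genes passed. Another quantile normalization moved the split of calls over all genes from 390 higher and 128 lower to 319 and 204.

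At 4 h 2 subunit genes were higher in KO and 0 lower (2.5%), beside 4.13% of all genes, 3.3% higher and 0.834% lower. Both belong to complex V. Atp5mpl, a small membrane subunit of the ATP synthase, had 8.76, 8.93 and 8.97 in KO, against 8.33, 8.50 and 8.80 in WT, a change of 0.35 (SE 0.09, adjusted p = 0.0266, limma). KO array 1 lay below WT array 3. Atp5h, subunit d of the peripheral stalk, had 10.12, 10.07 and 9.97 in KO, against 9.75, 9.84 and 9.90 in WT, a change of 0.22 (SE 0.06, adjusted p = 0.027) without overlap, which its second, dimmer probe set did not share (-0.21). Over the 80 genes arrays did not overlap for 6 higher and 4 lower in KO, beside 16.2% of all genes, 9.31% higher and 6.9% lower. The count of calls fell to 0 without WT array 1, WT array 2 or KO array 2 and to 1 without KO array 1, and it was 0 when KO array 2 stood alone for KO. Another quantile normalization moved the split over all genes from 732 higher and 185 lower to 492 and 251.

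At 24 h, when most subunit genes stood highest in WT, their changes lay mostly below 0 in KO. Of the 80 genes 65 had a change below 0, with a median of -0.11, beside 13874 of 22180 genes and a median of -0.053 overall. The test called 8 lower and 2 higher, together 12.5%, beside 11.3% of all genes called (7.38% lower and 3.9% higher), so the share called was near the background. Arrays did not overlap for 23 genes lower in KO and 2 higher, beside 27.2% of all genes, 18.8% lower and 8.37% higher. The 8 lower genes were Ndufa8, Ndufa10, Ndufa12 and Ndufs8 of complex I, Sdhd of complex II, Cyc1 of complex III and Atp5k and Atp5pb of complex V, and no gene of complex IV was called.

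Ndufa12, an accessory subunit of the hydrophilic arm of complex I, had 8.10, 8.08 and 8.01 in KO at 24 h, against 8.60, 8.43 and 8.26 in WT, a change of -0.36 (SE 0.10, adjusted p = 0.0177, limma). Sdhd had 8.47, 8.58 and 8.59 in KO, against 8.80, 8.83 and 8.98 in WT, a change of -0.32 (SE 0.10, adjusted p = 0.0393). Cyc1, the cytochrome c1 that hands electrons to cytochrome c, had 7.81, 7.93 and 7.84 in KO, against 8.32, 8.05 and 8.15 in WT, a change of -0.31 (SE 0.10, adjusted p = 0.0326). In each of these genes every KO array lay below every WT array. Atp5k, subunit e at the dimer interface of the ATP synthase, had 7.23, 7.16 and 7.26 in KO, against 7.68, 7.56 and 7.35 in WT, a change of -0.32 (SE 0.10, adjusted p = 0.0388). Atp5pb, subunit b of the peripheral stalk, changed by -0.24, Ndufs8, an iron-sulphur subunit of complex I, by -0.22, and the accessory subunits Ndufa8 and Ndufa10 by -0.27 and -0.23.

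The 2 genes higher in KO at 24 h were Ndufv3 and Atp5h. Ndufv3, an accessory subunit next to the NADH-binding site, had 7.48, 7.22 and 7.10 in KO, against 6.88, 6.80 and 7.0 in WT, a change of 0.38 (SE 0.10, adjusted p = 0.0187, limma). Atp5h had 10.60, 10.63 and 10.54 in KO, against 10.25, 10.42 and 10.32 in WT, a change of 0.26 (SE 0.06, adjusted p = 0.00375). Neither gene's arrays overlapped. For Atp5h the change was 0.13, 0.22, 0.26 and 0.13 at 0, 4, 24 and 72 h. Its second, dimmer probe set had 0.12, -0.21, 0.14 and -0.08 at these times, so it went the other way at 4 and 72 h.

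The 24 h calls rested on few arrays. The count of 10 fell to 2 without WT array 1, to 5 without WT array 2, to 3 without KO array 1 and to 5 without KO array 3, and Atp5h alone kept its call in all 24 fits that left out 1 array. When KO array 2 stood alone for KO, 0 genes passed, while all 10 changes kept their direction, with absolute sizes of 0.16 to 0.38. Another quantile normalization left 2 genes called, both higher in KO, brought the median of the 80 genes to -0.05 and moved the split over all genes from 865 higher and 1636 lower to 1150 and 1009.

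**Figure D3:**
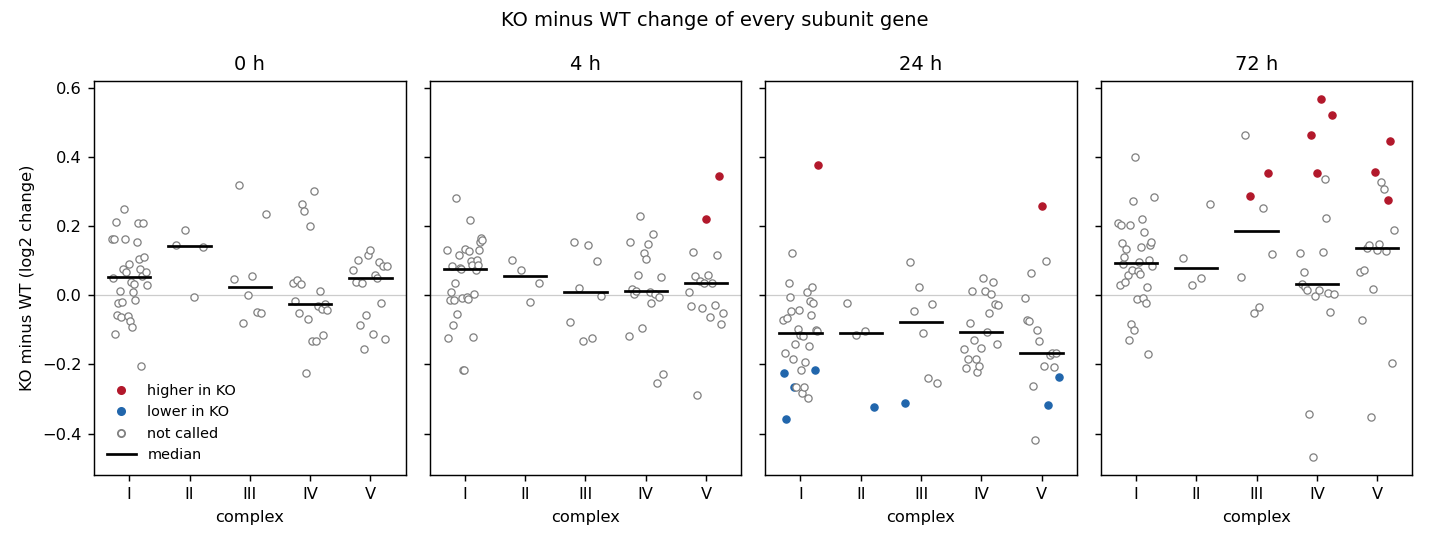
KO minus WT change (log2, vertical axis) of every subunit gene at 0, 4, 24 and 72 h (panels), grouped by complex (horizontal axis), with 1 point per gene, filled red where called higher in KO and blue where called lower, and a bar at the median. The points lie mostly below 0 at 24 h, with 8 genes called lower, and mostly above 0 at 72 h, with 9 called higher and 0 lower.

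At 72 h the changes lay mostly above 0. Of the 80 genes 64 had a change above 0, with a median of 0.10, beside 11757 of 22180 genes and a median of 0.01 overall. The test called 9 higher and 0 lower, 11.2%, beside 6.33% of all genes called, 2.56% higher and 3.78% lower. Arrays did not overlap for 29 genes higher in KO and 2 lower, beside 24.6% of all genes, 12.5% higher and 12% lower. The 9 were Uqcrb and Uqcrh of complex III, Cox6b1, Cox7a2, Cox7b and Ndufa4 of complex IV and Atp5g3, Atp5md and Atp5mpl of complex V. In complexes I and II 0 of 32 and 0 of 4 genes were called, with median changes of 0.09 and 0.08.

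In complex IV, the oxidase that reduces oxygen, the called genes were small accessory subunits. Cox7b had 8.01, 7.83 and 7.90 in KO at 72 h, against 7.50, 7.37 and 7.16 in WT, a change of 0.57 or 1.48-fold (SE 0.11, adjusted p = 0.00147, limma). Ndufa4 had 9.34, 9.47 and 9.46 in KO, against 8.96, 8.96 and 8.79 in WT, a change of 0.52 or 1.43-fold (SE 0.09, adjusted p = 0.000181). Cox6b1, which faces the intermembrane space, had 8.36, 8.37 and 8.43 in KO, against 8.04, 7.92 and 7.81 in WT, a change of 0.46 or 1.38-fold (SE 0.10, adjusted p = 0.00398). Every KO array of these genes lay above every WT array. A second probe set of Cox7b, with a mean level of 3.98, did not show the difference (-0.01), and with the mean of both the change was 0.28 and did not pass the test (adjusted p = 0.384, limma). Cox7a2, the broadly expressed isoform of subunit 7a, changed by 0.35. Of 10 broadly expressed complex IV genes 4 were called and all 10 had a change above 0, with a median of 0.28. Of the 8 tissue isoforms 4 had a change above 0 and 0 were called, but 5 of them lay below the low-level filter. Cox7a2l, counted in neither group, averaged 6.63 in KO arrays and 6.61 in WT arrays. Cox4i1, Cox5a and Cox5b were at 0.12, 0.07 and 0.02 and did not pass the test.

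In complex III, Uqcrh, the hinge protein that contacts cytochrome c1, had 7.71, 7.66 and 7.59 in KO at 72 h, against 7.28, 7.45 and 7.16 in WT, a change of 0.35 or 1.28-fold (SE 0.09, adjusted p = 0.014, limma). The arrays did not overlap. Uqcrb, which helps hold ubiquinone, changed by 0.29 and the small subunit Uqcr11 by 0.46, which did not pass the test (adjusted p = 0.0914). The core protein gene Uqcrc1 was at -0.05.

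In complex V the calls lay in the membrane part. Atp5mpl had 8.90, 8.79 and 8.93 in KO at 72 h, against 8.49, 8.39 and 8.40 in WT, a change of 0.45 or 1.36-fold (SE 0.09, adjusted p = 0.00183, limma), without overlap. Atp5g3, one of the genes for the rotating c ring, changed by 0.36 and Atp5md by 0.27. The other c ring genes did not share this rise and were not called. Atp5g2 averaged 10.85 in KO and 10.83 in WT, and the dimmer Atp5g1 averaged 4.36 in KO and 4.72 in WT. Of the 8 genes of the c ring and dimer interface 3 were called, with a median of 0.29. Of the 5 genes of the catalytic head and central stalk 0 were called, with a median of 0.07, and the genes of the catalytic alpha and beta subunits, Atp5a1 and Atp5b, were at 0.07 and -0.07. The grouping of genes within complexes I, IV and V was made after their values were seen, and the difference between those groups was not tested.

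Without WT array 3 at 72 h the count was 5. Cox6b1, Cox7a2, Cox7b, Ndufa4 and Atp5mpl kept their calls in all 24 fits that left out 1 array, while Atp5g3, Atp5md, Uqcrb and Uqcrh each lost theirs in 1 to 3 of them. When KO array 2, which had the lowest B cell markers, stood alone for KO, 1 gene passed and all 9 changes stayed above 0, between 0.24 and 0.57. With arrays 1 and 2 alone, which carry female levels of Xist, 3 passed and the changes ran from 0.21 to 0.48.

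**Figure D4:**
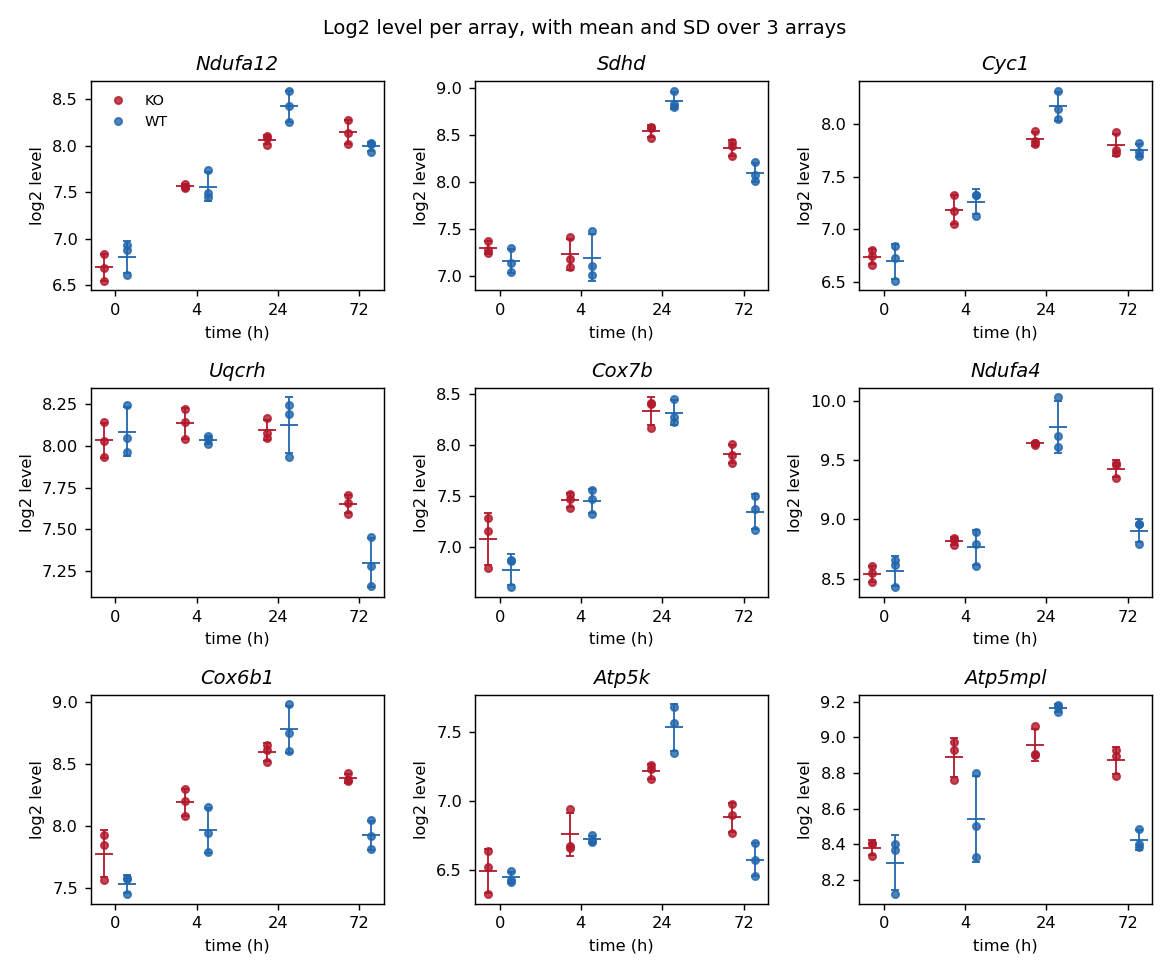
Log2 level (vertical axis) per array at 0, 4, 24 and 72 h (horizontal axis) of 9 subunit genes, KO in red left of WT in blue, with mean and SD (n = 3). Ndufa12, Sdhd, Cyc1 and Atp5k had KO arrays below WT arrays at 24 h, and Uqcrh, Cox7b, Ndufa4, Cox6b1 and Atp5mpl had KO arrays above WT arrays at 72 h.

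Of the 4 intervals compared, that from 24 to 72 h gave the most calls for a response that differed between KO and WT. In KO 14 of the 80 genes fell and 5 rose, and in WT 35 fell and 5 rose, beside 17.7% of all genes called in KO (8.04% fallen, 9.63% risen) and 27.4% in WT (15.8% and 11.6%). The median change was -0.02 in KO and -0.21 in WT, beside -0.01 and -0.063 over all genes. Of the genes that fell, 12 fell in both genotypes, which is 85.7% of the KO list and 34.3% of the WT list. In KO 37 genes had their highest group mean at 24 h and 33 at 72 h, and in WT 57 had it at 24 h and 12 at 72 h.

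The test of the KO change minus the WT change over this step called 18 genes higher in KO and 0 lower, 22.5%, beside 8.46% of all genes called, 4.9% higher and 3.56% lower. The median difference was 0.22, beside 0.057 over all genes. The 18 were Ndufa8, Ndufa11, Ndufa12, Ndufb9, Ndufs1 and Ndufs8 of complex I, Sdhd of complex II, Uqcrfs1 of complex III, Cox6b1, Cox7a2, Cox7b and Ndufa4 of complex IV, and Atp5e, Atp5g3, Atp5k, Atp5md, Atp5mpl and Atp5pb of complex V. In the plot of both changes they lie above the line of equal change. With the mean of probe sets 15 of the 18 were called, without Ndufa11, Cox7b and Atp5e, whose differences were then 0.14, 0.22 and 0.24. The dimmer probe set of Ndufa11 had KO minus WT changes of -0.32 at 24 h and -0.41 at 72 h, and that of Cox7b 0.10 and -0.01, so neither showed the higher KO change of the brighter one.

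**Figure D5:**
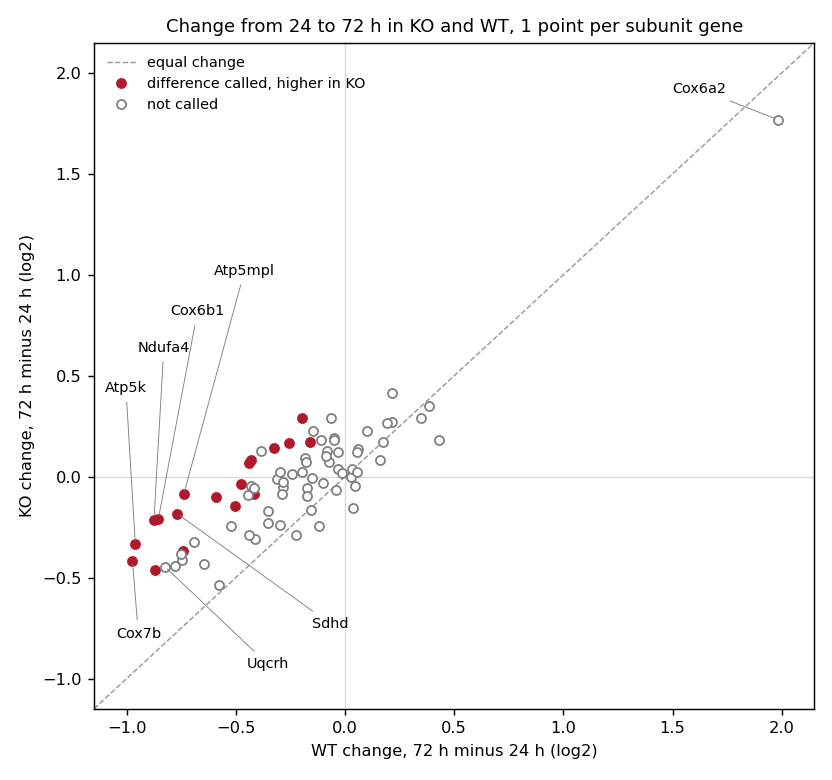
Change from 24 to 72 h (log2) of each subunit gene in KO (vertical axis) against WT (horizontal axis), with 1 point per gene and a dashed line of equal change. The 18 genes called for the difference, in red, lie above the line, at WT changes as low as -0.97 (Cox7b), and Cox6a2 stands alone at 1.77 in KO and 1.98 in WT.

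Ndufa4 changed by -0.21 in KO and -0.88 in WT, a difference of 0.66 (SE 0.12, adjusted p = 0.000832, limma). In KO its arrays were at 9.34, 9.47 and 9.46 at 72 h, against 9.65, 9.64 and 9.63 at 24 h, and in WT at 8.96, 8.96 and 8.79, against 10.03, 9.61 and 9.70. Both genotypes had all 72 h arrays below all 24 h arrays. Atp5mpl changed by -0.09 in KO and -0.74 in WT, a difference of 0.65 (SE 0.13, adjusted p = 0.0015), with KO arrays at 8.90, 8.79 and 8.93 at 72 h, against 9.06, 8.91 and 8.90 at 24 h, and WT arrays at 8.49, 8.39 and 8.40, against 9.14, 9.17 and 9.18. The 2 times overlapped in KO and stood apart in WT.

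Cox6b1 changed by -0.21 in KO and -0.85 in WT, a difference of 0.65 (SE 0.14, adjusted p = 0.00445, limma), with KO arrays at 8.65, 8.62 and 8.51 and WT arrays at 8.60, 8.98 and 8.75 at 24 h. Atp5k changed by -0.34 in KO and -0.96 in WT, a difference of 0.62 (SE 0.14, adjusted p = 0.00526), with 72 h arrays at 6.97, 6.90 and 6.76 in KO and at 6.69, 6.57 and 6.45 in WT. Sdhd, the succinate dehydrogenase anchor shown above with an NRF1 and an ETS motif, changed by -0.18 in KO and -0.77 in WT, a difference of 0.59 (SE 0.14, adjusted p = 0.00987), with 72 h arrays at 8.39, 8.27 and 8.43 in KO and at 8.21, 8.08 and 8.01 in WT. For Atp5k and Sdhd the KO arrays lay below the WT arrays at 24 h and above them at 72 h. Cox7b changed by -0.42 in KO and -0.97 in WT, a difference of 0.56 (SE 0.16, adjusted p = 0.0278), with 24 h arrays at 8.41, 8.41 and 8.17 in KO and at 8.23, 8.45 and 8.27 in WT. Its genotypes overlapped at 24 h and stood apart at 72 h.

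The differences of this step use the arrays of both KO and WT comparisons, so they are not separate evidence from those. The count of 18 fell to 11 without WT array 2 at 24 h, to 9 without WT array 3 at 72 h and to 10 without KO array 3 at 72 h, and 9 of the 18 kept their calls in all 24 fits: Ndufa8, Sdhd, Cox6b1, Cox7a2, Ndufa4, Atp5k, Atp5md, Atp5mpl and Atp5pb. When KO array 2 stood alone for KO, 0 passed and all 18 differences stayed above 0, between 0.27 and 0.71. Another quantile normalization called 12 of these 18 and moved the split over all genes from 1086 higher and 790 lower to 874 and 958.

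The rise before it was smaller in KO for a few genes. The KO change minus the WT change from 0 to 24 h was called lower for 4 genes and higher for 0 (5%), beside 5.87% of all genes, so the share was near the background: Ndufs1, Ndufs8, Ndufa8 and Atp5pb. Ndufs8 changed by 1.02 in KO and 1.45 in WT, a difference of -0.43 (SE 0.10, adjusted p = 0.0104, limma), and kept its call in all 24 fits that left out 1 array. The count was 1 or 2 without WT array 1 or 2 at 0 h, KO array 2 at 0 h or KO array 1 or 3 at 24 h, and 0 after another quantile normalization, which moved the split over all genes from 367 higher and 935 lower to 594 and 382. From 4 to 24 h the difference was called lower for 3 genes, Ndufa8, Ndufb9 and Atp5mpl, and higher for 0 (3.75%), beside 2.23% of all genes. This count was 0 without WT array 1 at 4 h and 1 without WT array 1 or KO array 3 at 24 h, and that split over all genes moved from 143 higher and 351 lower to 263 and 169.

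Genes that build or feed the complexes were set beside the subunits. At 24 h 11 of 47 assembly factors tested were lower in KO and 0 higher, with a median of -0.21, 5 of 14 genes for cytochrome c and ubiquinone were lower and 0 higher, with a median of -0.25, 5 of 16 enzymes of the tricarboxylic acid cycle were lower and 0 higher, with a median of -0.17, 4 of 20 regulators of mitochondrial and respiratory genes were lower and 0 higher, with a median of -0.22, and 2 of 16 carriers and other oxidoreductases were lower and 1 higher, with a median of -0.11. Of the assembly factors, Ndufaf4 changed by -0.59, Ndufaf1 by -0.52 and Uqcc2 by -0.47. The ubiquinone gene Coq7 changed by -0.72, Coq10b by -0.43 and Hccs, which attaches haem to cytochrome c, by -0.40. Suclg2 changed by -0.35, Fh1 by -0.30 and Dld by -0.29. Of the regulators, Myc changed by -0.44, Ppargc1b by -0.41 and Pprc1 by -0.38. Slc25a5, an ADP/ATP carrier, changed by -0.20, Vdac2, a channel of the outer membrane, by -0.26, and Sqor, which oxidises sulphide, by 0.51. Over all genes the median was -0.053, and 7.38% were called lower and 3.9% higher. Another quantile normalization moved this split from 865 higher and 1636 lower to 1150 and 1009. The counts of these lists are given only for the values as deposited.

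At 72 h few of these genes were called: 3 assembly factors lower and 1 higher, 0 genes for cytochrome c and ubiquinone, 1 cycle enzyme higher, 2 regulators higher, and 0 carriers. Over all genes 6.33% were called, 3.78% lower and 2.56% higher, and the small counts of these lists were read no further. The called assembly factors all belong to complex IV and were singled out after their values were seen. Sco1, which delivers copper to the oxidase, averaged 7.43 ± 0.09 in KO arrays, against 8.67 ± 0.08 for the WT arrays (SD, n = 3 each), a change of -1.24 (SE 0.09, adjusted p = 3.3e-10, limma). From 24 to 72 h Sco1 rose by 1.18 in KO and 2.11 in WT, a difference of -0.92 (SE 0.13, adjusted p = 2.66e-05). Cox15, needed to make haem a, changed by -0.60, Cox18 by -0.61 and Cox20 by 0.52. At the same time, the complex IV subunit genes Cox6b1, Cox7a2, Cox7b and Ndufa4 were higher in KO, as given above.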

How the data were processed

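RNA of mouse CD4 T cells was measured on 24 Affymetrix arrays, 3 in each of 8 groups of genotype and time, as the sample titles give them. The deposited table holds log2 values that the authors computed by RMA (oligo package, R 3.1.0), as the submitters' processing notes list; package versions and batches do not appear in the sources used here. RMA subtracts background, equalises the distributions of the arrays and compresses low signals. The table gives no detection call per probe set. Medians per array ran from 3.59 to 3.76. Precision is limited by the 3 arrays per group. Of 41345 probe sets 23521 have 1 gene in the platform annotation, and symbols were updated by Entrez ID to RefSeq (GRCm38.p6), which matched all 80 subunit genes. Of these 9 have several probe sets, of which the one with the highest mean was used.

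A model of 8 group means was fitted to 22180 genes with limma 3.58.1 in R 4.3.3 (eBayes with trend, 16 residual and 8.81 prior degrees of freedom), with Benjamini-Hochberg adjustment over all genes and calls at 0.05. The fit was tested on simulated data. The members and the lists were chosen with earlier results of these data known. The genes given by array were, per complex, up to 2 called genes with the largest change at 24 h and 1 at each other time, 2 at each end of the WT change from 0 to 24 h, and up to 6 called for a difference of responses; from each other list up to 3 called genes at 24 h were named. Alternatives were the mean of probe sets, a low-level filter, quantile normalization again, eBayes without trend or robust, only the groups compared, the replicate number as a block, arrays 1 and 2 alone, KO array 2 alone for KO, the platform's symbols and leaving out each array. KO and WT arrays that share a number and a time had deviations correlated by 0.032 to 0.172, above 0.1 in 6 of 12 pairs. The numbers were therefore not taken as pairs in the main fit. These pairs do not cover arrays of the same genotype that share a number across times. Comparisons between times treated such arrays as independent, except in the fit with the number as a block.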

Additional observations from a re-analysis of the deposited data

Results flagged for a closer look

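By the test of the difference itself (limma, adjusted p below 0.05 over all genes), the change over time differed between KO and WT for some subunit genes. There were 18 from 24 to 72 h, 3 from 4 to 24 h and 4 from 0 to 24 h. These are 22.5%, 3.75% and 5% of the 80, beside 8.46%, 2.23% and 5.87% of all genes. The share from 0 to 24 h was thus near the background. All 18 were higher in KO, and the 3 and the 4 were lower in KO. From 24 to 72 h the median change over all 80 genes, called or not, was -0.02 in KO and -0.21 in WT. Of 12 B cell markers tested 3, 2, 3 and 2 were called higher in KO and 0 lower at 0, 4, 24 and 72 h, and their part in the differences was not tested.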

How the results depend on the processing

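No gene called between KO and WT, or for a difference of responses, changed direction under any alternative. Genes called for a change over time within a genotype were not checked for this. Medians near 0 did change sign. That of the 80 genes for KO against WT went to -0.013 at 0 h and -0.009 at 4 h after quantile normalization again. Some of the complex medians below also crossed 0. With arrays left out one at a time, the counts of called genes ran from 0 to 2 at 0 h, 0 to 3 at 4 h, 2 to 11 at 24 h and 5 to 10 at 72 h for KO against WT, and from 1 to 5, 0 to 4 and 9 to 19 for the difference of responses from 0 to 24 h, 4 to 24 h and 24 to 72 h. The 4 h medians ran from 0.011 to 0.128 for complex I, -0.107 to 0.048 for complex III and -0.027 to 0.042 for complex V. The count at 4 h was 1 with the mean of probe sets and 0 without the trend, with only the groups compared or with KO array 2 alone for KO. At 24 h it was 2 after quantile normalization again, 6 without the trend, 6 with arrays 1 and 2 and 0 with KO array 2. At 72 h it was 3 with arrays 1 and 2 and 1 with KO array 2. With KO array 2 the KO counts were 26 (0 to 4 h), 34 (4 to 24 h) and 6 (24 to 72 h). The difference of responses had, from 4 to 24 h, 1 without the trend, 0 with only the groups compared, 1 with arrays 1 and 2 and 0 with KO array 2; from 24 to 72 h, 5 with arrays 1 and 2 and 0 with KO array 2; and from 0 to 24 h, 9 with the low-level filter, 0 after quantile normalization, 1 without the trend, 2 with only the groups compared and 0 with KO array 2. Quantile normalization brought the medians of complex I to 0.006, -0.006 and -0.041 at 0, 4 and 24 h, of complex V to -0.029 and -0.071 at 4 and 24 h, and of complexes II and III to -0.034 and 0 at 24 h. Arrays 1 and 2 gave complex I 0.129 at 4 h and 0.045 at 72 h, and KO array 2 gave 0.148 for complex I and 0.066 for complex III at 4 h and 0.157 for complex IV at 72 h. The causes of these shifts were not tested; fits with fewer arrays have less power by construction. With the replicate number as a block, the difference of responses from 4 to 24 h had 5 calls. Every one of the 24 arrays correlated best with arrays of its own number, a hint from the data and not the design. Low signals are compressed by RMA, which limits what the 5 isoforms below the filter can show.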
